A study of Mus musculus with 4 samples.

Results

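A set of 9 genes of the ATF4 branch of the integrated stress response were followed in mouse liver, Atf4, Atf3, Trib3, Chac1, Asns, Psat1, Sesn2, Ddit4 and Vldlr. They were taken by gene symbol from the deposited read counts, where each of the 9 symbols matched 1 of the 35275 listed genes. The livers came from 4 groups of female mice carrying the amyloidogenic Apoa2c allele of apolipoprotein A-II, named VS (vehicle, sedentary), VI (vehicle, interval training, IT), FS (AApoAII fibrils, sedentary) and FI (fibrils and IT). The fibril groups had received AApoAII amyloid fibrils intravenously, which seeds systemic amyloidosis, and the vehicle groups saline. All mice were 26 weeks old after 16 weeks of treadmill IT or of no training. The sample labels give the strain as AKR/J with an Apoa2c congenic genotype, whereas the study describes R1.P1-Apoa2c mice on a SAMR1 background. Each group's livers, from 4 mice, were pooled, so that 16 mice gave 4 libraries, 1 per group, and a difference between groups has no replicate check.

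When unfolded protein, amino acid shortage, viral RNA or heme shortage activates one of the eIF2 alpha kinases, general translation falls while the Atf4 mRNA is translated more efficiently. The ATF4 protein then induces genes of amino acid synthesis and transport, as well as genes that shut the response down again. Much of this regulation therefore takes place on protein, and the level of the Atf4 transcript says little about how much ATF4 protein is present. In liver the pathway is known from amino acid restriction and from stress of the endoplasmic reticulum (ER). Several of the 9 genes also answer to other signals: Ddit4 is known to be induced by glucocorticoids and by hypoxia, Sesn2 by p53, and Vldlr by PPAR and hypoxia signals.

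ATF4 binds with a C/EBP-family or related partner to the C/EBP-ATF response element, or CARE, whose core was searched as TGATGNAA on both strands, where N is any base. The search covered 300 bases around each start site annotated by RefSeq on GRCm38.p6, 250 upstream and 50 downstream, and all 9 genes had such a window, Psat1 and Vldlr a pair each. A match was found for 5 of the 9 genes, Atf3, Chac1, Asns, Trib3 and Vldlr, and in 4.51% of all 27025 genes. The genes were known as ATF4 targets when they were chosen, so this is a description and not a test, and a match is not shown to be bound here. The upstream stretches of Chac1 and Atf3 are shown because both hold the same core, TTGCATCA on the strand of the gene, outside annotated exons. Their cores are in capitals; the Chac1 stretch is chr2:119350992-119351228 on the plus strand and the Atf3 stretch chr1:191183341-191183583 on the minus strand, both written 5′ to 3′ along the gene.
Chac1: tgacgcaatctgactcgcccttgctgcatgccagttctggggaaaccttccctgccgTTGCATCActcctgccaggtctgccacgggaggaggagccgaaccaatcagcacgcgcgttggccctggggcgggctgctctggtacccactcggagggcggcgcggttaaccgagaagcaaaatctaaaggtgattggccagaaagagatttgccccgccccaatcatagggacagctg
Atf3: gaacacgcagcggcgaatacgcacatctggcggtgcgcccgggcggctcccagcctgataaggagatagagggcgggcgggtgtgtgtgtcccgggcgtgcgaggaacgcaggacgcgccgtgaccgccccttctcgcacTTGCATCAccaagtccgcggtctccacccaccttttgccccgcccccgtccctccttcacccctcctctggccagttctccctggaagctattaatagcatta

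In the other 3 genes the core lay close to or inside the transcribed part, and only 30 bases around it are shown, again with the core in capitals. They are chr6:7693214-7693243 for Asns and chr2:152344028-152344057 for Trib3, both on the minus strand, and chr19:27216809-27216838 for Vldlr, on the plus strand.
Asns: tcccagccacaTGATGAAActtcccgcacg
Trib3: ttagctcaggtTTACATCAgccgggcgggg
Vldlr: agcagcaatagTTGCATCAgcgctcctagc

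Atf4, Sesn2, Psat1 and Ddit4 had no core in these windows, which says only that these letters are not there. Ddit4 is shown because it differed most between the libraries. In its upstream stretch, chr10:59951835-59952020 on the minus strand, the capitals mark not a CARE but a pair of CCAAT boxes (read as ATTGG), a general promoter motif that 41.1% of all genes had in their windows and 7 of the 9 genes here.
Ddit4: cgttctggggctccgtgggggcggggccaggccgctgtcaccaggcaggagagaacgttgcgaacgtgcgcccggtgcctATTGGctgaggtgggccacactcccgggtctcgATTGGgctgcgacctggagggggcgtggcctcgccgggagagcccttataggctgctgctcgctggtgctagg
The palindromic cyclic AMP element TGACGTCA was in the windows of none of the 9 genes and of 2.03% of all genes.

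**Figure D1:**
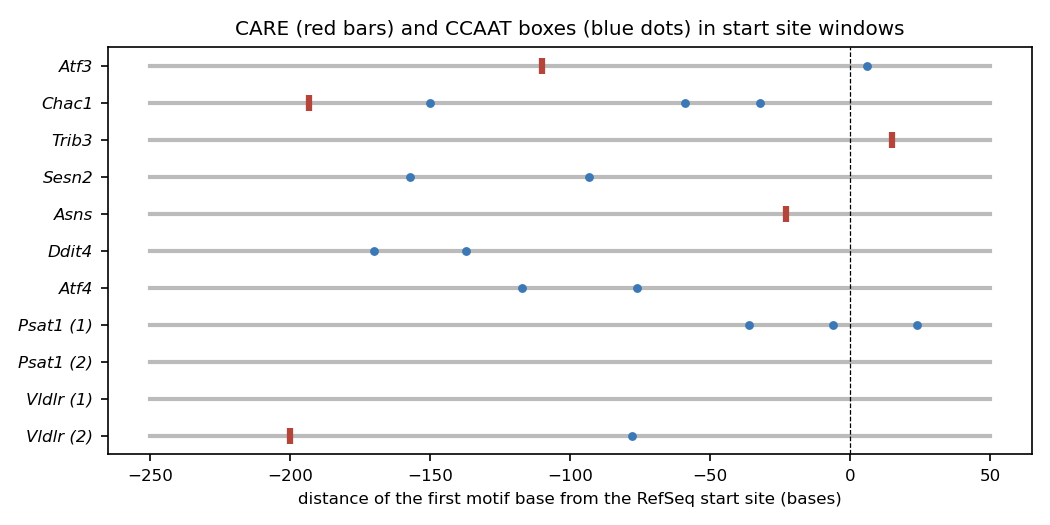
Position of CARE cores (red bars) and CCAAT boxes (blue dots) in windows from 250 bases before to 50 bases after each RefSeq start site of the 9 genes, as distance in bases; a number in brackets tells apart the start sites of 1 gene. The cores of Atf3, Chac1, Asns and Vldlr start 110, 193, 23 and 200 bases before the start site, and that of Trib3 starts at base 15 of the transcript.

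The libraries held between 23442935 and 28814802 counts, and 12180 genes reached 1 CPM (counts per 1000000 after TMM scaling) in at least 1 of them. Hepatocyte markers, Alb among them, summed to between 157911 and 172436 CPM. Marker lists of muscle, neutrophils and macrophages differed more between the libraries than the hepatocyte list did. Skeletal muscle genes (13 of 13 with a count) summed to 80.9 CPM for VS, 10.7 for VI, 1.15 for FS and 1.07 for FI, where 8 of the 13 were at 0. Neutrophil genes (10 of 10) summed to 2.71 CPM for VS, 3.65 for VI, 18.5 for FS and 13.8 for FI, and Kupffer cell and macrophage genes (9 of 9) to 298, 361, 459 and 459 CPM in the same order. Of 10 exocrine pancreas genes, 6 had no count in any library, Prss2, Pnlip and Cpa1 among them, and the list summed to 23.2 CPM in VS and to between 12.8 and 15.2 in the others. Whether these cells had a part in any difference given here was not tested unless a value says so, and in tissue the number of cells of a type and the RNA per cell cannot be told apart.

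Of the 9 genes, 7 reached 1 CPM, and they did so in all 4 libraries. Compared per gene length, as the authors' FPKM averaged over the libraries, Atf4 (64.8 FPKM) and Ddit4 (36.5) were the most abundant. Sesn2 (4.99), Trib3 (4.41) and Chac1 (3.77) lay lower, followed by Vldlr (1.89) and Atf3 (1.25). Psat1 (0.203) and Asns (0.128), both enzymes of amino acid synthesis, were barely detected. The mean of Ddit4 hides a wide range, with 2.15 FPKM for VS, 8.91 for VI, 33.6 for FS and 101 for FI. In VS it lay below Sesn2 (3.85), Trib3 (3.45) and Vldlr (3.03).

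**Figure D2:**
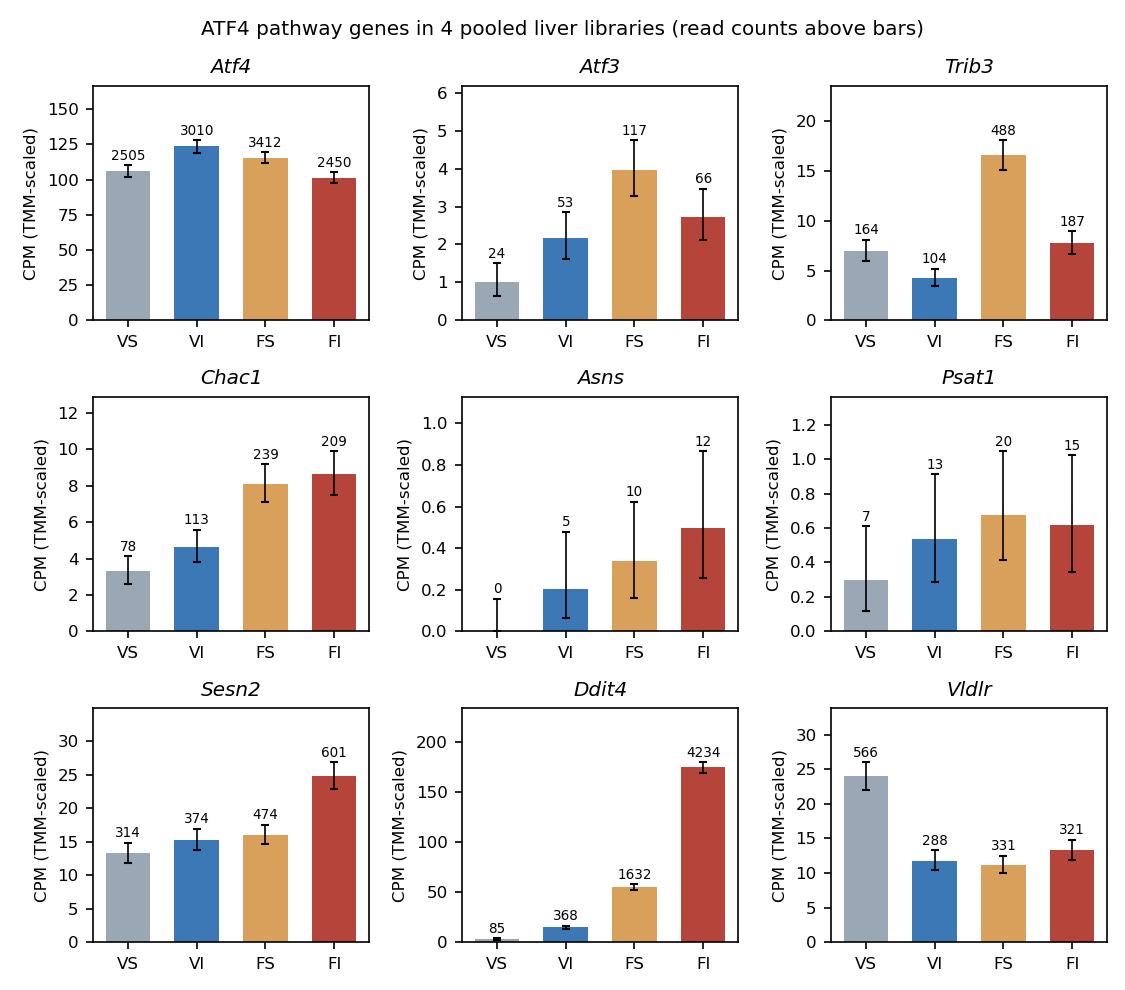
Level of each of the 9 genes in the 4 pooled liver libraries, in CPM on a linear axis from 0, with exact Poisson 95% intervals (counting error only) and the read count above each bar. Ddit4 climbs from 85 counts in VS to 4234 in FI, Vldlr is highest in VS, Trib3 and Atf3 are highest in FS, and Asns has no read in VS.

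Atf4 itself, the transcription factor at the head of the pathway, varied little. It had 106 CPM for VS (95% interval 102 to 110), 124 for VI (119 to 128), 116 for FS (112 to 120) and 101 for FI (97.3 to 105). The highest library was 1.22-fold above the lowest, and at this depth (2450 to 3412 counts) VS and FI could not be told apart, with a log2 ratio of −0.07 (−0.15 to 0.01) in FI versus VS. Atf4 was slightly higher in VI than in VS (0.22, 0.14 to 0.30) and slightly lower in FI than in FS (−0.19, −0.27 to −0.12). In the additive model, which fits amyloidosis and IT as separate effects over all 4 libraries, neither effect passed the test (amyloidosis −0.09, SE 0.13, adjusted p = 0.752, and IT 0.02, SE 0.13, adjusted p = 0.975, by the quasi-likelihood test of edgeR, Benjamini-Hochberg adjusted over 11760 genes). The 1 residual degree of freedom of that model is the interaction of both effects, so its p-values assume that both add up on the log scale, and they measure the spread between these libraries and not between mice.

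Amyloidosis in sedentary mice was compared as FS versus VS. Of the 7 expressed genes, 4 were more than 2-fold higher in FS, where 3.60% of all 12180 genes were, and 1 was more than 2-fold lower, where 2.20% of all genes were. The 4 were Ddit4, Atf3, Chac1 and Trib3, and the 1 lower was Vldlr. The median log2 ratio of the 7 genes was 1.25, against 0.02 over all genes. In trained mice (FI versus VI), which share no library with that comparison (skeletal muscle genes summed to 10.7 CPM in VI and 1.07 in FI), only Ddit4 was beyond 2-fold (2.59% of all genes were more than 2-fold higher, and none of the 7 was lower by that much, where 1.95% were). The median of the 7 genes there was 0.69, against 0.01 over all genes. With both factors fitted, 3 of the 7 rose with amyloidosis, Ddit4, Trib3 and Chac1, where 2.81% of the 11760 fitted genes were called higher, and none of the 7 was called lower, where 2.17% were.

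**Figure D3:**
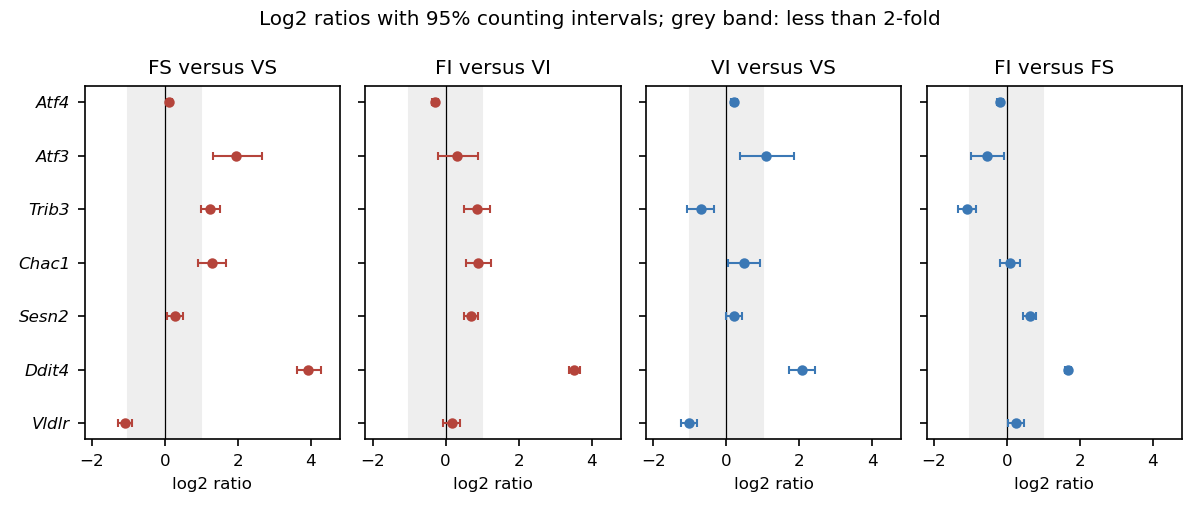
Log2 ratio of the 7 expressed genes in the comparisons of fibril with vehicle livers (red) and of trained with sedentary livers (blue), with 95% counting intervals; the grey band covers changes below 2-fold. Ddit4 lies outside the band in all 4 panels, with log2 ratios between 1.66 and 3.93, whereas Atf4 stays within 0.29 of 0.

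DDIT4 (REDD1) is an inhibitor of mTORC1, the kinase complex that drives protein synthesis when amino acids and growth factors are plentiful. Ddit4 (ENSMUSG00000020108, chromosome 10, 59949675 to 59951770, minus strand) had 3.60 CPM for VS (2.88 to 4.45), 15.1 for VI (13.6 to 16.7), 55.3 for FS (52.6 to 58.0) and 175 for FI (170 to 180). No 2 of these intervals overlapped. The gene was 15.4-fold higher in FS than in VS (12.3 to 19.3) and 11.6-fold higher in FI than in VI (10.4 to 12.9). Ranked by log2 ratio, it was number 13 of 12180 genes in the former comparison and number 7 in the latter. With IT it was 4.20-fold higher in VI than in VS (3.31 to 5.38) and 3.17-fold higher in FI than in FS (2.99 to 3.35). FI was 48.6-fold above VS (39.2 to 61.0). In the additive model it was the only one of the 7 genes that rose with both factors, by 3.70 with amyloidosis (SE 0.15, adjusted p = 2.02e-05) and by 1.82 with IT (SE 0.14, adjusted p = 0.00115, quasi-likelihood test of edgeR), higher in both libraries of each factor.

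Since Ddit4 is also a glucocorticoid target, 9 other genes known to be induced through the glucocorticoid receptor were set beside it. Their order of levels was VS, VI, FS, FI from low to high in 8 of 9, as for Ddit4. This order, chosen after that of Ddit4 had been seen, held for 7.94% of all expressed genes. It also held for 3 of the 7 expressed followed genes, Ddit4, Chac1 and Sesn2. In the other lists it held for between 0% (hypoxia targets) and 28.6% (amino acid transporters) of genes. Tat, a tyrosine-degrading enzyme of hepatocytes, had 938 CPM for VS, 2018 for VI, 3226 for FS and 5278 for FI. The metallothionein gene Mt2 had 790 CPM for VS, 1359 for VI, 2040 for FS and 2540 for FI. Of the 9, 6 rose with amyloidosis, where 2.81% of fitted genes did, and 2 with IT, where 0.765% did, none fell, and the part of this signal in the level of Ddit4 was not tested. The 7 expressed hypoxia targets had a median log2 ratio of −0.23 in FS versus VS and −0.01 in FI versus VI. One of them, Adm, the gene of adrenomedullin, named after its values were seen, was more than 2-fold higher in FS and in VI than in VS (log2 ratios 1.26 and 1.41), on 11 counts for VS, 31 for VI, 34 for FS and 37 for FI.

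Sesn2 encodes sestrin 2, which also restrains mTORC1 and senses leucine. Sesn2 (ENSMUSG00000028893, chromosome 4, 132492032 to 132510501) had 13.3 CPM for VS (11.9 to 14.9), 15.4 for VI (13.8 to 17.0), 16.1 for FS (14.6 to 17.6) and 24.8 for FI (22.9 to 26.9). FI was the highest library. VI and FS did not differ beyond counting error (log2 ratio 0.06, −0.13 to 0.26, in FS versus VI), nor did VI and VS (0.21, −0.01 to 0.43), and FS lay slightly above VS (0.27, 0.06 to 0.48). FI exceeded FS by 0.63 (0.45 to 0.81) and VI by 0.69 (0.51 to 0.88). The change with amyloidosis of 0.48 (SE 0.15, adjusted p = 0.119) and with IT of 0.43 (SE 0.15, adjusted p = 0.261) did not pass the quasi-likelihood test of edgeR. An annotated RNA gene on the same strand, Gm12981, lies within Sesn2 and could share reads with it.

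Trib3 and Chac1 are induced by ATF4 and its partner CHOP. Tribbles 3 is a pseudokinase that binds ATF4 and AKT and limits both, and CHAC1 is an enzyme that degrades glutathione. Trib3 (ENSMUSG00000032715, chromosome 2, 152337422 to 152344032) had 6.94 CPM for VS (5.92 to 8.09), 4.27 for VI (3.49 to 5.17), 16.5 for FS (15.1 to 18.1) and 7.73 for FI (6.66 to 8.92). FS was the highest library and VI the lowest, and FI lay back at the level of VS (log2 ratio 0.15, −0.16 to 0.47, in FI versus VS). Amyloidosis went with 2.38-fold more Trib3 in sedentary livers (1.99 to 2.86) and 1.81-fold more in trained livers (1.42 to 2.32). IT went with less in both, at a log2 ratio of −0.70 (−1.07 to −0.34) for VI versus VS and of −1.09 (−1.35 to −0.85) for FI versus FS. In the additive model Trib3 rose by 1.06 with amyloidosis (SE 0.18, adjusted p = 0.0148), and its value with IT was −0.92 (SE 0.18, adjusted p = 0.0503), just short of the threshold of 0.05 in the quasi-likelihood test of edgeR and on either side of it in the alternatives (adjusted p from 0.000116 without a filter on low counts, over 0.0358 with limma-voom and 0.135 with DESeq2, to 0.898 with IT fitted alone).

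Chac1 (ENSMUSG00000027313, chromosome 2, 119351229 to 119354381) had 3.30 CPM for VS (2.61 to 4.12), 4.64 for VI (3.82 to 5.58), 8.10 for FS (7.10 to 9.19) and 8.64 for FI (7.51 to 9.89). Both fibril libraries lay above both vehicle libraries, and FI and FS did not differ beyond counting error (log2 ratio 0.09, −0.18 to 0.37). The gene was 2.45-fold higher in FS than in VS (1.89 to 3.21) and 1.86-fold higher in FI than in VI (1.47 to 2.36), and it rose by 1.08 with amyloidosis in the additive model (SE 0.20, adjusted p = 0.0216, quasi-likelihood test of edgeR). With IT it was not lower, as Trib3 was, in either pair of libraries: the log2 ratio in VI versus VS was 0.49 (0.06 to 0.93), and the value in the additive model 0.27 (SE 0.20, adjusted p = 0.6).

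Atf3, a stress-induced transcription factor of the ATF family that dampens inflammatory genes, was the least abundant of the 7, with 24 counts for VS, 53 for VI, 117 for FS and 66 for FI. Atf3 (ENSMUSG00000026628, chromosome 1, 191170296 to 191183340) thus had 1.02 CPM for VS (0.651 to 1.51), 2.18 for VI (1.63 to 2.85), 3.96 for FS (3.28 to 4.75) and 2.73 for FI (2.11 to 3.47). VS was the lowest and FS the highest library, and VI and FI were not separated by counting error (log2 ratio 0.32, −0.22 to 0.88, in FI versus VI). FS was 3.90-fold above VS (2.5 to 6.33). In vehicle livers IT went with a log2 ratio of 1.08 (0.38 to 1.86) and in fibril livers with −0.53 (−1.0 to −0.09). Neither effect passed the test in the additive model (amyloidosis 1.09, SE 0.40, adjusted p = 0.174, and IT 0.13, SE 0.40, adjusted p = 0.921, quasi-likelihood test of edgeR). The neutrophil and macrophage lists were also highest in the fibril libraries, and their part in the level of Atf3 was not tested.

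Asns, asparagine synthetase, and Psat1, an aminotransferase of serine synthesis, are classical ATF4 targets. Asns (ENSMUSG00000029752, chromosome 6, 7675169 to 7693254) had no count for VS, 5 for VI, 10 for FS and 12 for FI. A count of 0 in VS allows up to 3 counts, 0.127 CPM, and the level in FS was 2.67 times and that in FI 3.90 times this limit. With the counting error of both libraries taken in, the lower 95% bound of the ratio to VS was 1.79-fold for FS and 2.71-fold for FI, whereas FI and VI did not differ beyond counting error (log2 ratio 1.19, −0.34 to 3.13). Psat1 (ENSMUSG00000024640, chromosome 19, 15904678 to 15947337) had 7 counts for VS, 13 for VI, 20 for FS and 15 for FI. No pair of libraries differed in Psat1 beyond counting error, and the widest ratio, FS versus VS, was 1.13 (−0.11 to 2.68). At this depth differences of that size were not detectable for Psat1. Both genes stayed out of the counts and fits given here, except those without a filter on low counts. A processed pseudogene, Gm3329, lies within Psat1 on the opposite strand.

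Vldlr encodes a receptor for triglyceride-rich lipoproteins, whose induction by ATF4 in liver has been linked to lipid uptake under ER stress. Its level was lower, not higher, in FS than in VS. Vldlr (ENSMUSG00000024924, chromosome 19, 27216484 to 27254231) had 24.0 CPM for VS (22 to 26), 11.8 for VI (10.5 to 13.3), 11.2 for FS (10.0 to 12.5) and 13.3 for FI (11.9 to 14.8). VS was the highest library, 2.14-fold above FS and 2.03-fold above VI, while FS and VI did not differ beyond counting error (log2 ratio −0.08, −0.31 to 0.16), nor did FI and VI (0.17, −0.07 to 0.40); FI lay slightly above FS (0.24, 0.02 to 0.47). VS was also the library with 80.9 CPM of skeletal muscle genes, against 10.7 CPM or less in the others, and skeletal muscle is known to express Vldlr; its part in the level of Vldlr was not tested. The values in the additive model were −0.49 with amyloidosis (SE 0.29, adjusted p = 0.395) and −0.40 with IT (SE 0.29, adjusted p = 0.606, quasi-likelihood test of edgeR).

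IT was compared in vehicle livers as VI versus VS and in fibril livers as FI versus FS. In vehicle livers 2 of the 7 genes, Ddit4 and Atf3, were more than 2-fold higher with IT, where 1.54% of all genes were, and Vldlr alone was more than 2-fold lower, where 1.90% were. In fibril livers Ddit4 was more than 2-fold higher (1.75% of all genes were) and Trib3 more than 2-fold lower (2.53% were). The median log2 ratio of the 7 genes was 0.22 in vehicle livers and 0.09 in fibril livers, where it turned to −0.05 without Ddit4. Only Ddit4 was called higher with IT in the additive model, where 0.765% of fitted genes were, and none of the 7 lower, where 0.714% were. VI versus VS and FS versus VS both rest on the VS library, as FI versus VI and FI versus FS both rest on FI, so values in them are not independent.

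**Figure D4:**
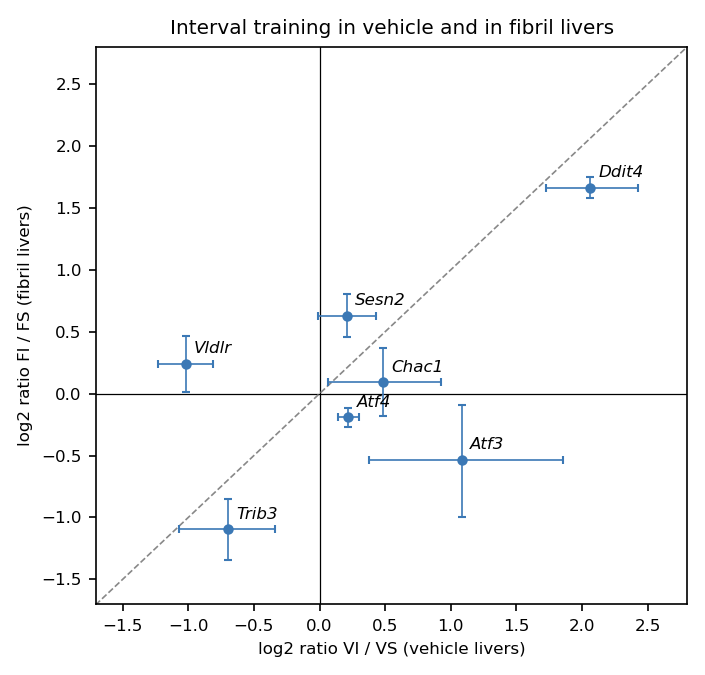
Log2 ratio with interval training in vehicle livers (horizontal) against that in fibril livers (vertical) for the 7 expressed genes, with 95% counting intervals; the dashed line marks equal ratios. Vldlr lies farthest above the line, at −1.02 and 0.24, and Atf3 farthest below it, at 1.08 and −0.53, while the other 5 genes lie between 0.39 and 0.42 from it along the vertical axis.

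The ratio with IT in fibril livers minus that in vehicle livers describes how far both factors departed from adding up on the log scale, and with 1 library per group it has a counting interval but no test. It was 1.26 for Vldlr (0.96 to 1.56) and −1.62 for Atf3 (−2.43 to −0.80). For Sesn2 it was 0.42 (0.15 to 0.70), and for Atf4 −0.41 (−0.52 to −0.30). Trib3 (−0.39, −0.82 to 0.03) and Chac1 (−0.39, −0.89 to 0.10) did not depart beyond counting error. Ddit4 departed by −0.40 (−0.75 to −0.05): multiplying both single changes would have given 232 CPM in FI and adding them in CPM 66.8, and 175 CPM were measured.

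The wider pathway was examined with lists of 60 genes in all, of which 52 were expressed: eIF2 alpha kinases and phosphatases, partner transcription factors, amino acid synthesis, amino acid transporters, tRNA synthetases, and secreted and other targets. In FS versus VS 5 of the 52 were more than 2-fold higher (Eif2ak3, Jdp2, Slc38a2, Wars and Cdkn1a) and 1 lower (Fgf21), where 3.60% and 2.20% of all genes were, with a median log2 ratio of 0.18, against 0.02 over all genes. In FI versus VI 1 was higher and 1 lower (Fgf21), where 2.59% and 1.95% of all genes were, with a median of 0.10. The higher one, Mthfd2, had 10 counts in VI and 31 in FI and reached 1 CPM in no library but FI, so that it is no support for a difference. In the additive model 4 of 50 fitted genes rose with amyloidosis, Dnajc3, Slc38a2, Cbs and Gpt2, and 1 fell, Fgf21, where 2.81% and 2.17% of all fitted genes did. With IT none rose and 1 fell, Gadd45a, where 0.765% and 0.714% did. Jdp2, Mthfd2 and Gadd45a are named here after their values were seen.

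Among the regulators of eIF2 alpha, the kinase gene Eif2ak3, which encodes the ER stress sensor PERK, had 12.3 CPM for VS, 16.4 for VI, 25.4 for FS and 18.5 for FI. It was highest in FS, but its value with amyloidosis (0.61, SE 0.21, adjusted p = 0.16) did not pass the test. Dnajc3, which encodes an ER co-chaperone that is also known to inhibit eIF2 alpha kinases, had 178 CPM for VS, 239 for VI, 332 for FS and 371 for FI, and rose by 0.76 with amyloidosis (SE 0.13, adjusted p = 0.0147, quasi-likelihood test of edgeR). Of the 10 genes of this list, 1, Dnajc3, was called higher with amyloidosis, where 2.81% of fitted genes were. None was called lower, where 2.17% were, and none was called for IT, where 0.765% were called higher and 0.714% lower.

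None of the 7 expressed partner factors was called for amyloidosis, where 2.81% of fitted genes were called higher and 2.17% lower. None was called for IT either, where 0.765% and 0.714% were. At such shares the absence of a call among 7 genes is no result about them. Cebpb, a leading factor of the acute phase response, had 150 CPM for VS, 187 for VI, 181 for FS and 214 for FI, and Nfe2l1 had 170, 163, 127 and 142 CPM in the same order. Ddit3, which encodes CHOP and was singled out after its values were seen, had 9.02 CPM for VS, 7.39 for VI, 9.99 for FS and 6.49 for FI, with a value of −0.02 with amyloidosis (SE 0.18, adjusted p = 0.971, quasi-likelihood test of edgeR). Unlike Trib3 and Chac1, Ddit3 thus had similar levels in VS and FS (log2 ratio 0.15).

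In amino acid metabolism, 2 of 6 fitted genes rose with amyloidosis, where 2.81% of all fitted genes did. None was called lower, where 2.17% were. Shmt2, named after its values were seen, went the other way without being called (−0.47, SE 0.12, adjusted p = 0.0615, quasi-likelihood test of edgeR). Gpt2, an alanine aminotransferase, had 233 CPM for VS, 315 for VI, 385 for FS and 537 for FI, and rose by 0.74 (SE 0.12, adjusted p = 0.0143). Cbs, which makes cystathionine from homocysteine and serine, had 239, 254, 375 and 369 CPM in the same order and rose by 0.59 (SE 0.12, adjusted p = 0.0323). Of 6 fitted amino acid transporters 1 rose with amyloidosis and none fell, beside the same shares of all fitted genes. The 1 was Slc38a2, a carrier of small neutral amino acids. It had 130 CPM for VS, 184 for VI, 282 for FS and 334 for FI. Its change was 0.98 (SE 0.13, adjusted p = 0.00622, quasi-likelihood test of edgeR for Gpt2, Cbs and Slc38a2). Slc1a4, the other transporter named by the rule, had 4.40, 4.43, 5.66 and 4.46 CPM.

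Of 12 cytosolic tRNA synthetase genes and the tRNA exporter gene Xpot, none of the 13 was called. Among all fitted genes 2.81% were called higher and 2.17% lower with amyloidosis, and 0.765% and 0.714% with IT. At such shares the absence of a call among 13 genes is no result about them. The median log2 ratio of the 13 was 0.25 in FS versus VS and 0.03 in FI versus VI, against 0.02 and 0.01 over all genes. Wars came nearest the threshold, with 12.3 CPM for VS, 14.2 for VI, 24.9 for FS and 18.8 for FI (amyloidosis 0.71, SE 0.17, adjusted p = 0.0548), followed by Nars (0.52, SE 0.13, adjusted p = 0.0583, quasi-likelihood test of edgeR). Fgf21, a hormone of liver that ATF4 and PPAR alpha induce, was lower in both fibril libraries, with 7.28 CPM for VS, 6.36 for VI, 1.90 for FS and 2.11 for FI. It fell by 1.77 with amyloidosis (SE 0.23, adjusted p = 0.00622, quasi-likelihood test of edgeR), opposite to Trib3, Chac1 and Ddit4. Cdkn1a, a p53 target that is also listed here, had 5.63 CPM for VS, 35.4 for VI, 30.8 for FS and 56.1 for FI. Its log2 ratio was 2.44 in FS versus VS and 2.65 in VI versus VS, but 0.66 in FI versus VI and 0.87 in FI versus FS. It was not called, at 1.44 with amyloidosis (SE 0.53, adjusted p = 0.286) and 1.65 with IT (SE 0.53, adjusted p = 0.353, quasi-likelihood test of edgeR). By qPCR of single mice the paper reports more Cdkn1a mRNA with IT and with amyloid deposition.

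Genes of the other ER stress arms, IRE1 and ATF6, were set beside the pathway. Of 14 such genes, 11 rose with amyloidosis in the additive model, where 2.81% of fitted genes did, and none fell, where 2.17% did, with a median log2 ratio of 1.41 in FS versus VS and 0.96 in FI versus VI. Derl3, part of ER-associated degradation, had 0.762 CPM for VS, 1.81 for VI, 17.3 for FS and 12 for FI, and the ER protein gene Sdf2l1 had 6.73, 11.4, 69.8 and 42.0 CPM. In FI versus FS 13 of the 14 were lower, with a median of −0.47 against 0.002 over all genes. None was beyond 2-fold there, where 1.75% of all genes were higher by that much and 2.53% lower. None was called for IT, where 0.765% of fitted genes were called higher and 0.714% lower. In FI versus FS Trib3, at −1.09, was lower too, whereas Ddit4, at 1.66, was higher.

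**Figure D5:**
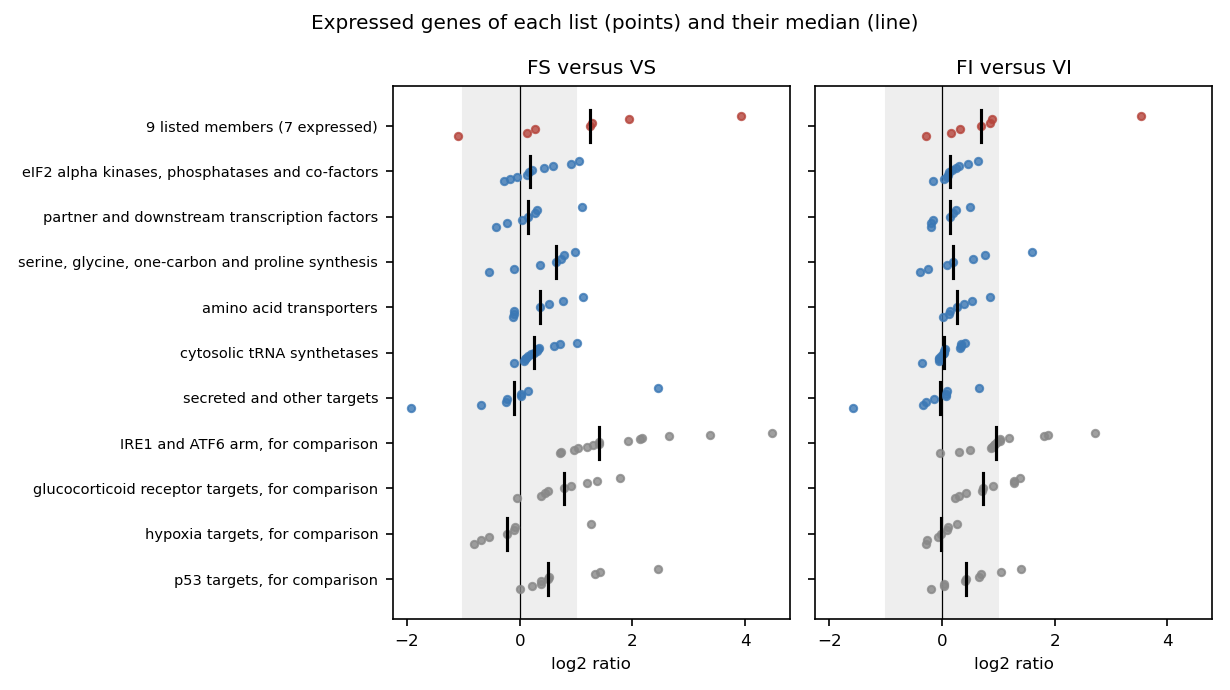
Log2 ratios of the expressed genes of each list in both comparisons of fibril with vehicle livers, with the list's median as a black line; the 7 followed genes are red, other pathway lists blue, and lists for comparison grey. The median of the IRE1 and ATF6 list is 1.41 in FS versus VS and that of the tRNA synthetases 0.25.

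The level of the 7 genes was finally averaged on the log2 scale after centring each on its mean, which gave −0.66 for VS, −0.33 for VI, 0.44 for FS and 0.55 for FI. Ddit4 weighed most in it: over the other 6 genes the mean was −0.29 for VS, −0.24 for VI, 0.34 for FS and 0.20 for FI, with FS and not FI the highest. Chac1 lay nearest to this mean profile (Euclidean distance 0.15 over the 4 libraries) and Ddit4 farthest (3.19). Among 9343 other genes with at least 5 CPM in a library, Gspt2 (0.08), Abi2 (0.12), Nedd9 (0.13), Suco (0.13) and Pik3ap1 (0.14) lay nearest. Gspt2, the nearest of them, had 2.20 CPM for VS, 2.63 for VI, 4.67 for FS and 5.25 for FI. With 4 points a profile is described coarsely, and the likeness says nothing of shared control.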

How the data were processed

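The authors pooled homogenized liver of 4 mice per group, extracted total RNA and had 4 libraries sequenced on an Illumina platform. The submitters' processing notes name fastp 0.23.2, STAR 2.5 and HTSeq 0.6.1 and the mm10 build. The authors deposited read counts per gene without normalization, and FPKM values, which all (100%) equal count per gene length and total count within a relative tolerance of 0.0001. It is not given in these sources whether strand was used in counting.

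R 4.3.3 was used with edgeR 4.0.16, limma 3.58.1 and DESeq2 1.42.0, and Python 3.11.15 with matplotlib 3.10.9 drew the figures. Log2 ratios of counts used TMM scaling, a prior of 0.5 counts and exact conditional binomial (Clopper-Pearson) 95% intervals; levels have exact Poisson intervals. Without molecular identifiers a read may be a PCR copy, and all intervals, and the limit of 3 counts for a count of 0, describe counting error alone. Ratios covered genes with at least 1 CPM in 1 library. For the additive model (amyloidosis and IT) the robust quasi-likelihood method of edgeR was run on genes reaching 1 CPM in 2 libraries, with Benjamini-Hochberg adjustment. The code was tested on simulated data, which does not test the assumption that both effects add up. Alternatives were other scalings, filters and tools, each factor fitted alone, and the genes without Ddit4.

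The genes and lists were chosen with earlier results of these data known. By rule, the text names the 9 genes, the 2 genes of each list with the largest mean log2 ratio of fibril to vehicle livers in absolute size and at least 5 CPM, and the 5 genes nearest the mean profile. Of the list symbols, Gcn1, Adgre1 and Jchain had no match, Gcn1 being present as Gcn1l1. Start and end were the same in GENCODE M21 for 6 of the 9 genes.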

Additional observations from a re-analysis of the deposited data

Results flagged for a closer look

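Atf4, Atf3 and Vldlr went in opposite directions under the same factor in 2 settings, each beyond counting error; with 1 library per group these differences between settings were not tested. Atf3 had a log2 ratio with IT of 1.08 in vehicle livers (VI versus VS) and of −0.53 in fibril livers (FI versus FS). Vldlr had −1.02 in vehicle and 0.24 in fibril livers. The latter had an interval of 0.02 to 0.47, close to 0, and was 0.17 with total counts and 0.10 in FPKM with a pseudocount of 1. Atf4 had 0.22 in vehicle and −0.19 in fibril livers, and with amyloidosis 0.12 in FS versus VS and −0.29 in FI versus VI.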

How the results depend on the processing

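No paired analysis was possible because each group is 1 library, and no replicate could be left out. No ratio of the 7 expressed genes reversed under any alternative run, the departures from additivity stayed on their side of 0, and no scaling moved the median of all genes by 0.1 on the log2 scale. The median of the 7 genes in FS versus VS fell from 1.25 to 0.76 with a filter at 5 CPM and without Ddit4, which was left out after its values were seen; in FI versus FS it turned from 0.09 to −0.05 without Ddit4. In VI versus VS it was 0.22, 0.49 without a filter, where Asns and Psat1 enter, and 0.33 as a mean. Beyond 2-fold, FI versus VI had 1 gene, 2 without a filter and 0 without Ddit4, and at 1.5-fold 4. VI versus VS had 3 genes, and 1 in FPKM with a pseudocount of 1 or 0.1. FI versus FS had 2, and 1 in FPKM with a pseudocount of 1 or without Ddit4. Shares of all genes were taken at 2-fold in the main setting only. The counts under other settings therefore have no such share beside them and are no result about these genes.

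The additive model called 3 of the 7 genes for amyloidosis and 0 when amyloidosis was fitted alone. Without a filter, where Asns and Psat1 were fitted too, it called 6 of 9 (Atf3, Trib3, Chac1, Sesn2, Ddit4 and Vldlr). Over all genes it called 585 of 11760, 1519 of 19939 without a filter and 8 of 11760 with amyloidosis alone. For IT it called 1 of the 7, Ddit4, and 0 with IT alone. It called 2 of the 7, Trib3 and Ddit4, with limma-voom, with DESeq2 size factors and without robust estimation. Without a filter the same 2 were called, of 9 fitted. Over all 11760 fitted genes it called 174 for IT and 0 with IT alone. It called 242 of them with limma-voom, 184 with DESeq2 size factors and 204 without robust estimation. Without a filter it called 740 of 19939 genes, and at 5 CPM 82 of 8999. The cause of these shifts was not tested. Depth limits Atf3, Asns and Psat1 most, at 117 counts or fewer per library.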

Other observations

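The 9 p53 targets were listed because Sesn2 is also induced by p53. Their median log2 ratio was 0.50 in FS versus VS and 0.43 in FI versus VI, against 0.02 and 0.01 over all genes. Of 8 fitted p53 targets 1, Trp53inp1, rose with amyloidosis, where 2.81% of fitted genes did. None fell, where 2.17% did. With IT the median of the 9 was −0.03 in VI versus VS, where 4 were higher, and −0.10 in FI versus FS, where 3 were higher. Over all genes these medians were 0.003 and 0.002. Of the 8 fitted, 1, again Trp53inp1, rose with IT and none fell, where 0.765% and 0.714% of fitted genes did. Trp53inp1, which encodes a nuclear protein of the p53 response and of autophagy, had 61.7 CPM for VS, 114 for VI, 156 for FS and 235 for FI, the order of Ddit4. It rose by 1.18 with amyloidosis (SE 0.12, adjusted p = 0.0031) and by 0.74 with IT (SE 0.12, adjusted p = 0.0299, by the quasi-likelihood test of edgeR), higher in both libraries of each factor. Among hypoxia targets with at least 5 CPM in a library, Vegfa and Pdk1 had the largest mean ratios of fibril to vehicle livers in absolute size. Vegfa had 201 CPM for VS, 153 for VI, 125 for FS and 126 for FI, and Pdk1 30.9, 25.2, 21.1 and 20.8 CPM. Both were lower in FS than in VS, and neither was called. Adm, which stayed below 5 CPM, had a larger mean ratio and was higher in FS than in VS (log2 ratio 1.26).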
